A study of Mus musculus with 4 samples.

Results

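Endothelial cells and blood stem cells share part of their surface gene set, and 10 such genes were read in hematopoietic stem cells sorted from mouse bone marrow. They are the Tie receptor genes Tek and Tie1, the angiopoietin gene Angpt1, the receptor phosphatase gene Ptprb, the VEGF receptor gene Kdr, the roundabout gene Robo4 and the junction and surface genes Cdh5, Esam, Pecam1 and Emcn. They were picked by name from a listed set, with no measured value in the rule, but with earlier results of these data known. All 10 are among the 23450 gene symbols of the deposited files. All 10 also passed the filter on low values, which kept 12569 genes, each of the 10 with at least 1 CPM in a library of both groups (CPM are counts scaled to a library total of 1e6 reads). Long-term stem cells (LT-HSC, 2 libraries) were sorted as CD48-, CD150+ and CD34- cells with a high level of CD9, a tetraspanin of the cell surface. Short-term stem cells (ST-HSC, 2 libraries) were sorted as CD48- and CD150+ cells with a low level of CD9, and their label names no CD34 gate. Each library was made from 2000 cells. The sources used here do not give strain, age, treatment or the number of animals behind a library.

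The Tie pathway keeps the lining of blood vessels quiet. Its ligand angiopoietin 1 activates the receptor tyrosine kinase Tie2, the product of Tek, Tie1 modulates that receptor, and the phosphatase VE-PTP, the product of Ptprb, removes phosphate from it. Stem cells of the bone marrow carry Tie2 too, and signalling through it has been tied to their quiescence and adhesion. The junction proteins VE-cadherin, ESAM and PECAM-1 hold vessel cells together. ESAM and endomucin are used as surface markers of mouse blood stem cells. VE-cadherin marks the endothelium and the earliest stem cells that bud from it.

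Stem cell identity and depth were read first. All 11 listed genes of a 12-gene stem cell marker list, among them Hlf, Kit and Ptprc, had reads in every library, with a summed level of 4186 and 4452 CPM in LT-HSC, against 3223 and 3646 CPM in ST-HSC. The libraries held 13063743 to 16143870 reads recovered from the deposited values, and 13275 to 14548 genes with a read, the most in LT-HSC 1. No gene of the whole table passed the test (limma on log2(CPM + 1), Benjamini-Hochberg adjusted p under 0.05): 0% of genes were called higher and 0% lower, with 814 genes at an unadjusted p under 0.05 and 0 passing and 585 at an unadjusted p under 0.05 with limma-voom on the recovered reads. Fold changes below are therefore values, not calls. The values come from bulk libraries, in which fewer cells of a type and less RNA per cell cannot be told apart, and the labels do not say whether the 2 libraries of a group are from different mice, so p-values measure the spread between libraries, which may be technical.

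In CPM, which are not scaled for gene length, Angpt1, Esam, Emcn, Robo4, Tek, Pecam1 and Tie1 averaged at least 50 CPM over the 4 libraries, while Kdr, Ptprb and Cdh5 averaged under 20 CPM. For 5 of the 10 genes, Angpt1, Robo4, Esam, Emcn and Kdr, the lower LT-HSC library exceeded the higher ST-HSC library, which held for 16.2% of all tested genes. The reverse held for 1 gene, Tie1, and for 17.5% of all tested genes. The other 4 genes, Tek, Ptprb, Cdh5 and Pecam1, overlapped. The median log2 fold change was 0.20 over the 10 genes and -0.01 over all tested genes. The median of the 10 genes was 0.062 without ST-HSC 1 and 0.44 without LT-HSC 2. Without LT-HSC 1 it was 0.44 and without ST-HSC 2 it was 0.32, both over 9 genes because Ptprb then failed the filter. Without ST-HSC 1, LT-HSC lay below ST-HSC 2 for 3 of the 10 genes. Groups separate more easily with fewer libraries, so the shares above do not apply to this count. The share over all tested genes was not counted for it. Robo4 was the 1 gene with an unadjusted p under 0.05, on the higher side, where 2.87% of all tested genes lay (3.6% on the lower side). The adjusted p ranged from 0.75 for Robo4 to 0.9998 for Tek, Ptprb and Pecam1. The 95% interval of the log2 fold change held 0 for 9 of the 10 genes, all but Robo4, so neither a difference nor likeness of the groups was shown for them. These intervals are not adjusted for the number of genes tested, and no difference was called for Robo4 either. With 1 library left out, the log2 fold change of Robo4 ran from 1.24 to 3.18, so its size depended on single libraries.

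**Figure D1:**
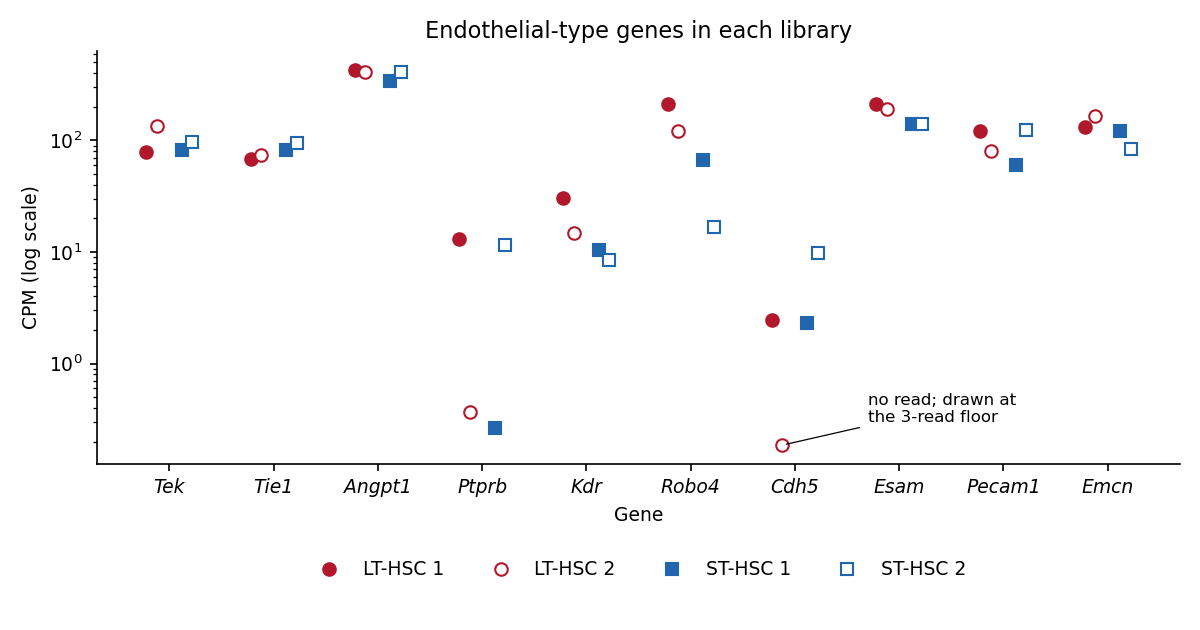
CPM on a log axis of each gene in each library, LT-HSC as circles and ST-HSC as squares, with the library numbered 1 filled and the library numbered 2 open. Angpt1 sits between 343 and 432 CPM in every library, Ptprb has a high and a low library in each group, and Cdh5 had no read in LT-HSC 2.

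The ligand gene Angpt1 encodes the secreted activator of Tie2, which stem cells and megakaryocytes make as well as stroma. It had 432 and 409 CPM in LT-HSC 1 and 2, against 343 and 408 CPM in ST-HSC 1 and 2. The groups did not overlap, but LT-HSC 2 and ST-HSC 2 were within 1 CPM of each other. Angpt1 had a log2 fold change of 0.17 ± 0.18 (SE; limma adjusted p = 0.9643), with an interval from -0.30 to 0.64. The value was 0.042 without ST-HSC 1 and 0.29 without ST-HSC 2.

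Tek, the gene of the receptor Tie2, had 78.1 and 134 CPM in LT-HSC 1 and 2, against 81.7 and 96.5 CPM in ST-HSC 1 and 2. The groups overlapped, since LT-HSC held both the lowest and the highest library. Its log2 fold change of 0.20 ± 0.40 (SE; limma adjusted p = 0.9998) turned to -0.18 when LT-HSC 2 was left out. Tie1, the gene of the related receptor that has no well-established ligand of its own, had 68.7 and 73.3 CPM in LT-HSC 1 and 2, against 81.3 and 94.8 CPM in ST-HSC 1 and 2. Both LT-HSC libraries were the lower ones, in the direction opposite to the other genes without overlap. The log2 fold change of Tie1 was -0.30 ± 0.35 (SE; limma adjusted p = 0.971), within an interval from -1.19 to 0.59. As a ratio within each library, which no scaling of the library changes, Tek had 1.14 and 1.83 times the CPM of Tie1 in LT-HSC 1 and 2, against 1.005 and 1.018 times in ST-HSC 1 and 2. This ratio was chosen after the values were seen and was not tested.

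Ptprb, the gene of the phosphatase VE-PTP that acts on Tie2 and on VE-cadherin complexes, split each group. It had 170 and 6 reads in LT-HSC 1 and 2, against 4 and 170 reads in ST-HSC 1 and 2. These are 13.0 and 0.371 CPM in LT-HSC, against 0.266 and 11.5 CPM in ST-HSC, so each group held 1 high and 1 low library. The log2 difference between libraries of the same group was 3.35 in LT-HSC and 3.30 in ST-HSC in size, while the log2 fold change between the groups was 0.14 ± 1.78 (SE; limma adjusted p = 0.9998). Its interval ran from -4.46 to 4.75, and its sign followed single libraries, with -1.51 without ST-HSC 1 and 1.82 without LT-HSC 2.

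Kdr encodes VEGFR2, the main signalling receptor for VEGF in endothelium. It had 30.3 and 14.9 CPM in LT-HSC 1 and 2, against 10.4 and 8.49 CPM in ST-HSC 1 and 2, or 396 and 240 reads against 156 and 126 reads. The groups did not overlap, and LT-HSC 1 had the highest value. For Kdr the log2 fold change was 1.10 ± 0.90 (SE; limma adjusted p = 0.9099), or 0.61 without LT-HSC 1. Kit, the stem cell factor receptor gene that neighbours Kdr in the mouse RefSeq annotation, had 317 and 362 CPM in LT-HSC, against 291 and 364 CPM in ST-HSC, which overlapped.

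Robo4, the endothelial member of the roundabout receptors, also acts in the homing of blood stem cells to the marrow. It had 210.3 and 122 CPM in LT-HSC 1 and 2, against 67.1 and 16.7 CPM in ST-HSC 1 and 2. All LT-HSC values lay above all ST-HSC values, and the ST-HSC libraries differed from each other by 1.94 on the log2 scale. Its log2 fold change of 2.21 ± 0.75 (SE) was the highest of the 10, with an unadjusted limma p of 0.0327 and an adjusted p of 0.75. The interval ran from 0.27 to 4.15. Single libraries moved the log2 fold change to 1.24 without ST-HSC 2, 1.82 without LT-HSC 1, 2.61 without LT-HSC 2 and 3.18 without ST-HSC 1. Robo3, a roundabout gene that lies next to Robo4 in the RefSeq annotation, had the same order of libraries, with 30.1 and 13.6 CPM in LT-HSC 1 and 2, against 10.3 and 9.84 CPM in ST-HSC 1 and 2. Whether reads of either gene were assigned to the other was not tested. No gene listed in the files overlaps any of the 10 genes in that annotation.

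Of the junction genes, Esam, which encodes an immunoglobulin-like adhesion molecule of endothelium, platelets and stem cells, varied little within groups. It had 213 and 191 CPM in LT-HSC 1 and 2, against 139.5 and 141 CPM in ST-HSC 1 and 2. The groups did not overlap, and the ST-HSC libraries were within 0.02 of each other on the log2 scale. Esam had a log2 fold change of 0.52 ± 0.24 (SE; limma unadjusted p = 0.0830, adjusted p = 0.8018), between 0.44 and 0.60 with any 1 library left out. Emcn, which encodes the sialomucin endomucin, had 133 and 165 CPM in LT-HSC 1 and 2, against 122 and 84.1 CPM in ST-HSC 1 and 2. LT-HSC 1 and ST-HSC 1 lay close together, with a log2 difference of 0.11, and the libraries numbered 2 differed by 0.96. The log2 fold change of Emcn was 0.54 ± 0.34 (SE; limma adjusted p = 0.8619), and it was 0.27 without ST-HSC 2.

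Pecam1, the gene of the adhesion molecule CD31, had 122 and 80.9 CPM in LT-HSC 1 and 2, against 59.6 and 124 CPM in ST-HSC 1 and 2. ST-HSC held both the lowest and the highest library. Its log2 fold change was 0.21 ± 0.49 (SE; limma adjusted p = 0.9998), and turned to -0.08 without LT-HSC 1 and -0.31 without ST-HSC 1. Cdh5, the gene of VE-cadherin, the cadherin of endothelial junctions, had few reads. It had 32 reads and no read in LT-HSC 1 and 2, against 35 and 146 reads in ST-HSC 1 and 2. In CPM these are 2.45 and 0 in LT-HSC, against 2.33 and 9.84 in ST-HSC, and the libraries numbered 1 were nearly equal. A count of 0 allows up to 3 reads, or 0.186 CPM, in LT-HSC 2, counting error only. The log2 fold change of Cdh5 was -1.69 ± 1.24 (SE; limma adjusted p = 0.8819), and leaving out LT-HSC 2 or ST-HSC 2 gave -0.80 or -0.84, against -2.59 without LT-HSC 1 and -2.55 without ST-HSC 1. It was -4.27 with limma-voom on the recovered reads and -3.62 on the deposited log2 values as they are.

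**Figure D2:**
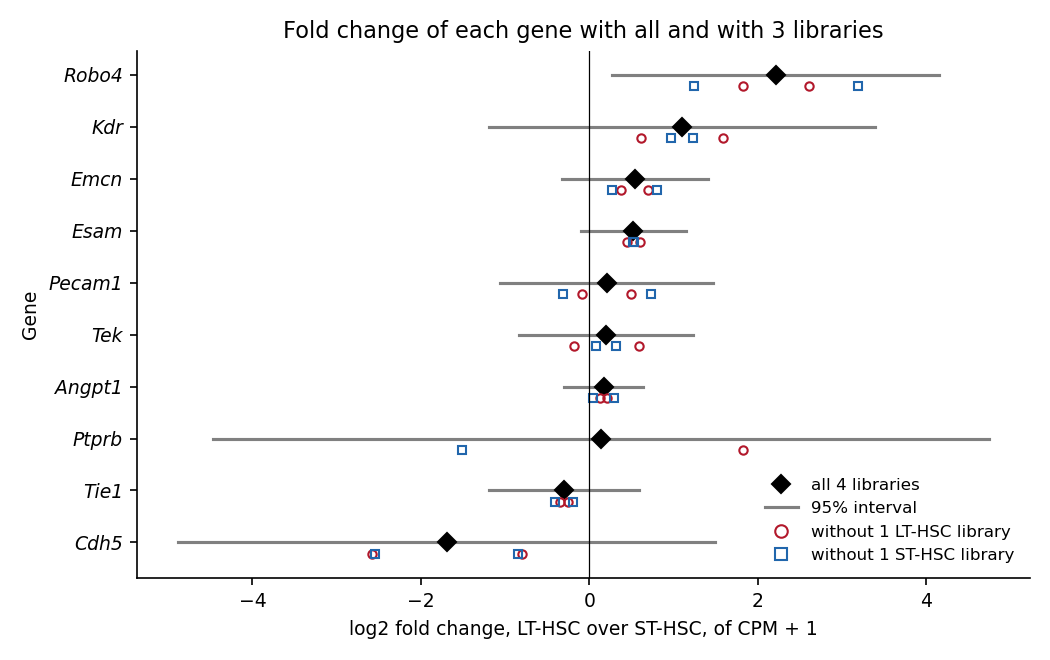
Log2 fold change of CPM + 1, LT-HSC over ST-HSC, of each gene with all 4 libraries (diamonds, with 95% limma intervals as lines), and below each line the value with 1 LT-HSC library (circles) or 1 ST-HSC library (squares) left out. Robo4 lies farthest to the right at 2.21 and its values with 3 libraries spread from 1.24 to 3.18, while the Esam values stay between 0.44 and 0.60. Ptprb has 2 such values because it failed the filter in the other cases.

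Of the genes whose groups did not overlap, 4 have a RefSeq promoter entry (build GRCm38.p6, another build than the mm9 of the files). Robo4, Kdr and Emcn had the larger values in LT-HSC, and Tie1 had them in ST-HSC. No difference between the groups was called for any of these genes, and no link between letters and levels was tested. Their upstream sequences are shown as a description. Each is the 250 bases before the annotated start, 5′ to 3′ on the strand of the gene. Capitals mark GGAA, the core letters bound by ETS factors such as Erg and Fli1, which endothelial and blood stem cells both use, and TTCC where that core lies on the other strand.
Robo4, chr9:37401722-37401971, plus strand: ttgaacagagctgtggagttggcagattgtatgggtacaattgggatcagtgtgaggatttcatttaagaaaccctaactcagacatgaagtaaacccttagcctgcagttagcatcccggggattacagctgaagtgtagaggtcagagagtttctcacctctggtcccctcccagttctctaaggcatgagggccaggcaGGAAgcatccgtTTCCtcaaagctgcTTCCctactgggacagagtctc
Kdr, chr5:75978456-75978705, minus strand: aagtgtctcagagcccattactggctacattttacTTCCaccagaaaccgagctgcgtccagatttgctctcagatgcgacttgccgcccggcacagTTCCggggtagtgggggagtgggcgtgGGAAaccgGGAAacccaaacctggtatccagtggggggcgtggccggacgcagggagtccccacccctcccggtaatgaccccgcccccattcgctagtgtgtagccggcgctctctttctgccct
Emcn, chr3:137340828-137341077, plus strand: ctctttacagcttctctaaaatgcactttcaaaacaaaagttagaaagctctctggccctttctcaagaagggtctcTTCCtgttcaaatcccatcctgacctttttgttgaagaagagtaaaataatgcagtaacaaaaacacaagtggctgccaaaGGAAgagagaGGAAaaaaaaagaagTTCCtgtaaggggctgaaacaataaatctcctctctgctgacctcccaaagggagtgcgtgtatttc
Tie1, chr4:118489850-118490099, minus strand: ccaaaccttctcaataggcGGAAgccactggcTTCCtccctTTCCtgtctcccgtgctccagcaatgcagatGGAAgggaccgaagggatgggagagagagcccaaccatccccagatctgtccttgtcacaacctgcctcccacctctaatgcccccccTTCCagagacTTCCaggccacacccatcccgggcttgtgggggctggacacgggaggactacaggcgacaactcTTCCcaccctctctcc
The core was found 3 times ahead of Robo4, 4 times ahead of both Kdr and Emcn and 7 times ahead of Tie1, counting both strands. It is a short string that 93.4% of all 32851 windows of this length hold, with a median of 3, and 33.4% hold it at least 4 times and 3.82% at least 7 times. Tek, the remaining gene with an entry, held it 2 times. GATAA, a core of GATA factor sites, was searched on both strands, shares no position with a marked core here because it was found 0 times in these 5 windows, and is held by 22.6% of all windows. A match is a description of letters and not a bound site.

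Levels were compared between genes per kilobase of exon, using merged exon lengths from GENCODE release M21. In LT-HSC, Esam led with 108 ± 8.44 CPM per kilobase, followed by Angpt1 with 98.7 ± 3.77, Emcn with 57.4 ± 8.81, Robo4 with 32.5 ± 12.3, Pecam1 with 24.5 ± 6.96, Tek with 22.5 ± 8.39 and Tie1 with 15.6 ± 0.706 CPM per kilobase (SD, n = 2 each). Kdr with 3.81 ± 1.84, Ptprb with 0.520 ± 0.695 and Cdh5 with 0.306 ± 0.433 CPM per kilobase came last. In that order the libraries of Robo4 and Pecam1, of Pecam1 and Tek, and of Ptprb and Cdh5 overlapped, and those of the other neighbours did not. In ST-HSC, Angpt1 led with 88.1 ± 10.9 CPM per kilobase, ahead of Esam with 75.2 ± 0.590, Emcn with 39.9 ± 10.5, Pecam1 with 22.2 ± 10.9, Tie1 with 19.3 ± 2.10 and Tek with 19.0 ± 2.23 CPM per kilobase (SD, n = 2 each). Robo4 came after these with 8.20 ± 6.97, then Kdr with 1.59 ± 0.224, Cdh5 with 1.52 ± 1.33 and Ptprb with 0.456 ± 0.616 CPM per kilobase. There the libraries of Pecam1 and Tie1, of Tie1 and Tek, of Kdr and Cdh5, and of Cdh5 and Ptprb overlapped. Averaged over the 4 libraries, Angpt1 and Esam stood at percentiles 91.9 and 91.8 of the 11257 tested genes with a length, Emcn at 80.1, and Kdr, Cdh5 and Ptprb at 15.5, 5.12 and 2.2.

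Libraries of the same group also differed from each other. For the 3 genes under 20 CPM, the log2 difference between libraries of a group ranged in size from 0.98 to 3.35 in LT-HSC and from 0.26 to 3.30 in ST-HSC, against medians of 1.38 and 1.15 over all 3524 tested genes in that range. For the 7 genes of at least 50 CPM it ranged from 0.08 to 0.79 in LT-HSC and from 0.02 to 1.94 in ST-HSC, against medians of 0.46 and 0.36 over 6117 genes. The 1.94 belongs to Robo4 and the next in size, 1.04 for Pecam1, is also in ST-HSC.

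The other genes of these pathways were read as fixed lists, and none of their members passed over all tested genes in either direction. Their counts above and below both ST-HSC libraries stand beside shares of 16.2% and 17.5% over all tested genes, and with 2 to 14 tested genes a list they describe the lists only. Of 8 tested Tie pathway partners, 3 lay above (37.5%) and 2 below (25%) both ST-HSC libraries, with a median log2 fold change of 0.33. The highest fold changes were those of Pik3r1, a regulatory subunit gene of the PI3 kinase that Tie2 recruits, with 153 and 323 CPM in LT-HSC, against 79.7 and 107 CPM in ST-HSC, and of Foxo1, a transcription factor that Tie2 signalling restrains through AKT, with 61.9 and 51.9 CPM in LT-HSC, against 23.9 and 19.8 CPM in ST-HSC. Their limma adjusted p was 0.7548 and 0.767. Angpt4, Grb7 and Grb14 had no read in any library. Of 4 tested VEGF ligand and receptor genes, 1 lay above (25%) and 0 below, with a median of -0.52. That gene was Vegfc, a ligand gene of VEGFR3, at 49.998 and 35.5 CPM in LT-HSC, against 20.3 and 21.4 CPM in ST-HSC (limma adjusted p = 0.8596). Vegfb, a ligand gene of the receptor Flt1, overlapped, with 27.7 and 3.53 CPM in LT-HSC, against 28.7 and 11.5 CPM in ST-HSC. Flt1 itself had no read in any library, and Flt4 had none in LT-HSC 1, so among the receptor genes Flt1, Flt4 and Kdr, Kdr alone had reads in all 4 libraries. Of 7 Slit and Robo relatives, only Robo3 and Slit2 could be tested, and Slit2, a ligand gene, had 364 reads in LT-HSC 1 and none in LT-HSC 2, against none and 21 in ST-HSC 1 and 2.

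Of 14 tested junction partners, 3 lay above (21.4%) and 2 below (14.3%) both ST-HSC libraries, near the shares over all genes, with a median log2 fold change of -0.06. Ocln, the tight junction gene of occludin, had 51.2 and 43.7 CPM in LT-HSC, against 4.85 and 0 CPM in ST-HSC (limma adjusted p = 0.7157). Jam2, the gene of a junctional adhesion molecule, had 198 and 586 reads in LT-HSC and no read in ST-HSC. The catenin gene Ctnnb1, whose product links cadherins to the cytoskeleton, had 402 and 475 CPM in LT-HSC, against 384 and 515 CPM in ST-HSC, which overlapped. Of 11 tested sialomucin and shared surface genes, 3 lay above (27.3%) and 1 below (9.09%), with a median of 0.13. The gene below was Cd34, a sialomucin gene and a marker of the LT-HSC gate. Procr, the gene of the protein C receptor, was among those above, with 347 and 236 CPM in LT-HSC, against 136 and 122 CPM in ST-HSC (limma adjusted p = 0.7157).

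Of 10 tested transcription factor genes shared by endothelium and blood, 1 lay above (10%) and 0 below both ST-HSC libraries, with a median of 0.21. It was Erg, an ETS factor gene, with 273 and 400.0 CPM in LT-HSC, against 183 and 225 CPM in ST-HSC, with a log2 fold change of 0.70 ± 0.28 (SE; limma adjusted p = 0.767). Lmo2, the gene of a bridging protein of stem cell transcription complexes, overlapped, with 798 and 687 CPM in LT-HSC, against 692 and 658 CPM in ST-HSC. In the stem cell marker list, 6 of 11 lay above and 0 below, with a median of 0.36, among them Mecom, a transcription factor gene of stem cell maintenance, with 691 and 844 CPM in LT-HSC, against 365 and 480 CPM in ST-HSC. The share above both was 50% for the 10 endothelial-type genes and 54.5% for the stem cell markers, beside 16.2% of all tested genes. Both lists were chosen with earlier results of these data known, and nothing particular to either list was tested.

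**Figure D3:**
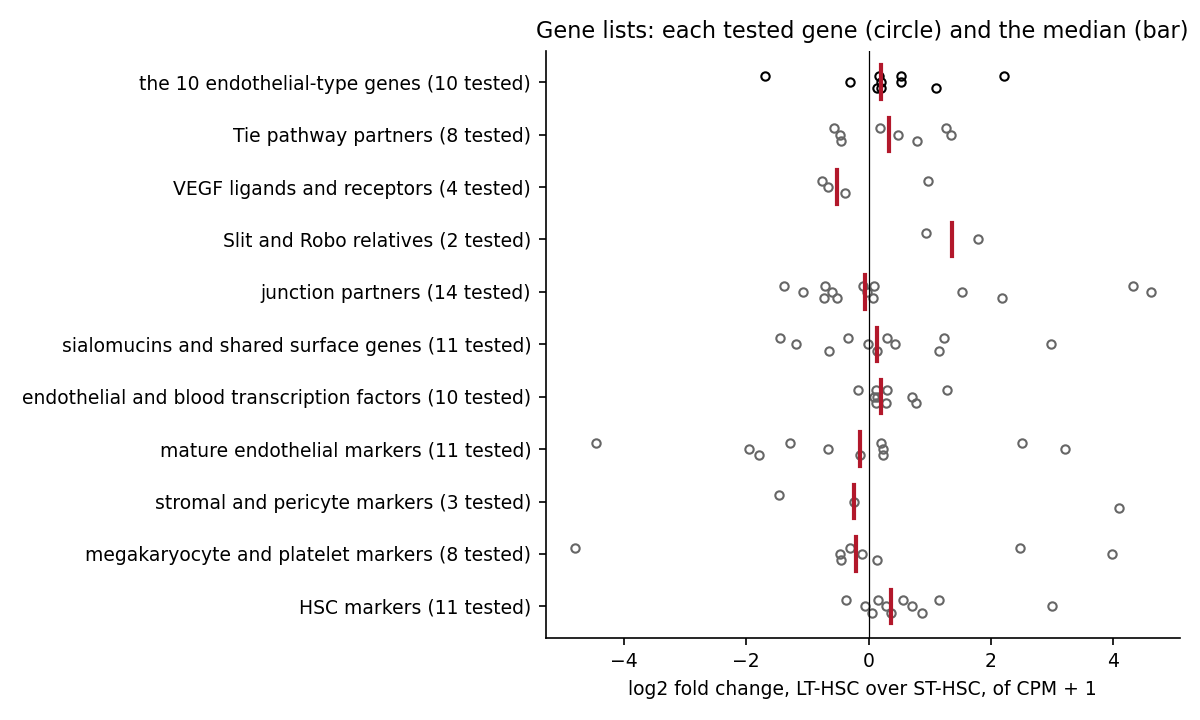
Log2 fold change of CPM + 1, LT-HSC over ST-HSC, of every tested gene (circles) in each list, with the list's median as a bar. The medians lie between -0.52 and 1.37, and the 10 endothelial-type genes run from -1.69 for Cdh5 to 2.21 for Robo4.

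Markers of other cells that carry these genes were read beside them. Of 20 mature endothelial markers, 18 were listed and 6 had reads in every library, while Plvap, Sox17 and Lyve1 had no read in any. The summed level of the list was 774 and 794 CPM in LT-HSC, against 798 and 767 CPM in ST-HSC, so the groups overlapped. Most of it came from Egfl7, a secreted vessel factor gene, and Eltd1, an adhesion receptor gene, which summed to 699 and 751 CPM in LT-HSC, against 693 and 708 CPM in ST-HSC. The other 16 listed markers summed to 74.5 and 43.4 CPM in LT-HSC, against 105 and 59.8 CPM in ST-HSC. Of 11 tested, 2 lay above (18.2%) and 3 below (27.3%) both ST-HSC libraries. Stab2, a scavenger receptor gene of sinusoidal endothelium, had no read in LT-HSC, against 426 and 229 reads in ST-HSC. Against a floor of 3 reads per library, which covers counting error only, it was at least 105-fold lower in LT-HSC. Without ST-HSC 1 that bound was 74.4-fold. The limma interval of its log2 fold change ran from -7.07 to -1.84 (adjusted p = 0.7157). Rasip1, a gene of vessel lumen formation, had 57 and 240 reads in LT-HSC and no read in ST-HSC. By the same floor it was at least 47.8-fold higher in LT-HSC, or at least 21.7-fold without LT-HSC 2. Its limma interval ran from 0.46 to 5.95 (adjusted p = 0.7496). Libraries of the same group could also differ this way, as with Slit2 at 364 reads in LT-HSC 1 and none in LT-HSC 2.

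Stromal and pericyte markers were uneven between libraries. The 10 genes summed to 84.0 and 11.01 CPM in LT-HSC 1 and 2, against 4.32 and 18.6 CPM in ST-HSC 1 and 2, with Cspg4 and Lepr unread in all. Col1a2, a collagen gene, had 38.8 and 6.87 CPM in LT-HSC 1 and 2, against 0 and 0.0674 CPM in ST-HSC 1 and 2. Pdgfrb, a pericyte receptor gene, had 2.22 and 0 CPM in LT-HSC 1 and 2, against 0.731 and 13.1 CPM in ST-HSC 1 and 2. Angpt1, Ptprb, Kdr, Robo4 and Esam were highest in LT-HSC 1, the library with the highest stromal sum and the most genes with a read. Tek and Emcn were highest in LT-HSC 2, and Tie1, Pecam1 and Cdh5 in ST-HSC 2. The share of all tested genes that were highest in LT-HSC 1 was not counted. The part of stromal cells in these values was not tested. Megakaryocyte and platelet markers, whose cells also carry Pecam1, Esam and Angpt1, summed to 484 and 530.3 CPM in LT-HSC, against 364 and 232 CPM in ST-HSC. Vwf, the gene of von Willebrand factor, made up most of the LT-HSC sums with 304 and 379.7 CPM, against 45.3 and 9.17 CPM in ST-HSC, and Itga2b, the gene of CD41, had 2.45 and 5.01 CPM in LT-HSC, against 152 and 105 CPM in ST-HSC. Of the 8 tested, 1 lay above (12.5%) and 3 below (37.5%) both ST-HSC libraries. The gene above was Vwf, and those below were Itga2b, Pf4 and Gp9, so the higher LT-HSC sum rested on Vwf. The part of such cells in the Esam values was not tested.

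**Figure D4:**
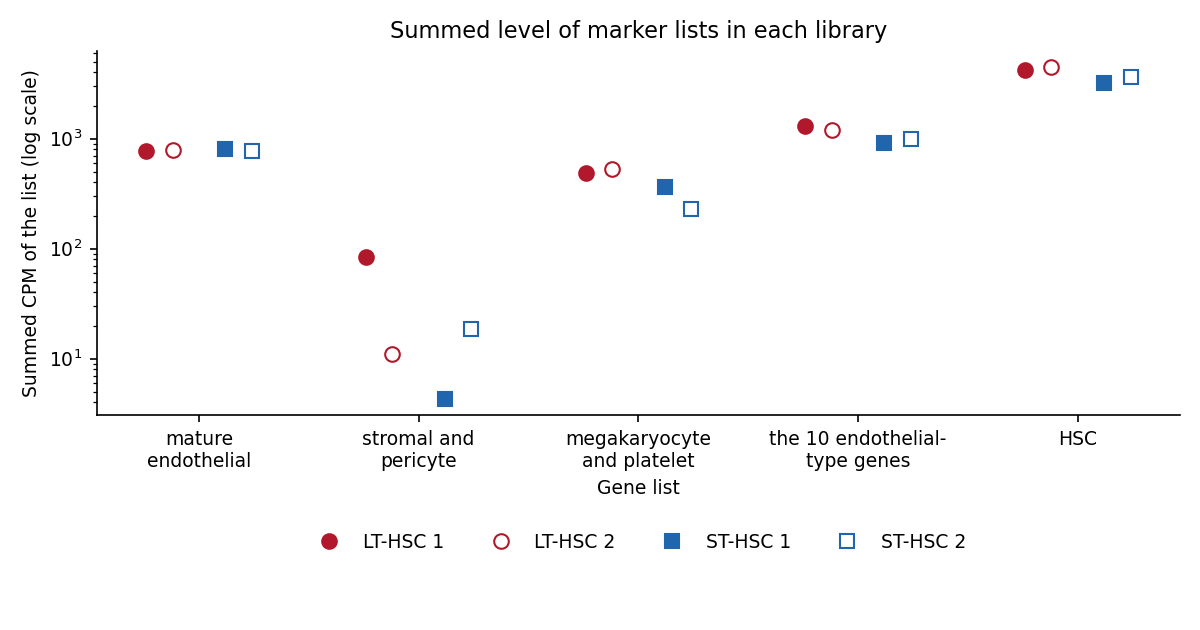
Summed CPM on a log axis of marker lists and of the 10 endothelial-type genes in each library, LT-HSC as circles and ST-HSC as squares. The mature endothelial sums lie between 767 and 798 CPM in every library, the stromal sum is highest in LT-HSC 1 at 84.0 CPM, and the 10 genes sum to 1302 and 1190 CPM in LT-HSC, against 907 and 995 CPM in ST-HSC.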

How the data were processed

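Per the labels' protocols, cDNA was made with the SMARTer kit from 2000 cells a library, and Illumina libraries were sequenced. TopHat and mm9 are named in the submitters' processing notes. The sources used here do not give the read counter, annotation, strand handling or filters. The authors deposited 1 log2 value per gene and library. Low values step as whole reads plus 1, scaled to a library total of 1e6: each value standing for 100 reads or fewer was whole to within 0.1 read (12812 to 13135 values per library, unread genes included, with the scale set from the same steps). Raising unread genes to 1 read would give the same steps, so each count could be 1 read higher. The recovered reads fell short of the authors' totals by 0.0838% to 0.113%.

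Undoing the added read gave CPM. Genes reaching 1 CPM in 2 or more libraries were kept, and log2(CPM + 1) was fitted in limma 3.58.1 under R 4.3.3 (mean-variance trend, robust shrinkage through statmod 1.5.0) and adjusted by Benjamini-Hochberg over 12569 genes. The test was run on simulated data, with log2 changes of 3 and the same relative spread for all genes, taken from genes above 50 CPM. Genes under 20 CPM varied more within groups here, and the fold changes of the 10 genes were smaller. The simulation therefore does not show how often changes of these 10 genes would be called. Chi-square over its degrees of freedom, between the 2 libraries of a group, was 168.2 in LT-HSC and 134 in ST-HSC. Neither library of a group therefore copied the other. Libraries of different groups were not compared this way. A floor of 3 reads equals 0.186 to 0.229 CPM. Floors cover counting error alone, because PCR copies of a molecule count as separate reads.

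The genes and lists were chosen with earlier results of these data known. The text names all 10 genes and, per list, the 2 tested genes of smallest unadjusted p, with the 2 most read mature endothelial markers; other names were chosen after their values were seen. Promoters are RefSeq entries, found for 5 of the 10 genes. Alternatives were other scaling, filters, pseudocounts, limma-voom, the deposited log2 values, no robust shrinkage, the replicate number as a block and each library left out.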

Additional observations from a re-analysis of the deposited data

How the results depend on the processing

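Over the 14 alternatives, all of them planned, no endothelial-type gene passed the threshold (smallest limma adjusted p = 0.54, for Robo4). Robo4, Kdr, Esam, Emcn and Angpt1 had positive and Tie1 and Cdh5 negative fold changes under every alternative that tested them. Signs turned with single libraries left out for Tek (range -0.18 to 0.59), Pecam1 (-0.31 to 0.73, and -0.08 without LT-HSC replicate 1) and Ptprb (-1.51 to 1.82). With 1 library left out, the lone library of a group is assumed to vary like the other group. The median of the tested genes then ranged from 0.062 to 0.44, the number above both ST-HSC libraries from 5 to 6, the number below from 1 to 3, and the genes at an unadjusted p under 0.05 from 415 to 1116. Where an ST-HSC library was left out, the numbers above and below refer to the ST-HSC library that remained. Groups separate more easily with fewer libraries, so these numbers cannot be compared with those from all libraries. The shares over all tested genes were not counted with a library left out. With no filter on low values 3 genes of the whole table passed, against 0: Olfr58, Olfr859 and Gm8068, with 6 to 8 reads in each LT-HSC library and none in ST-HSC. With at least 5 CPM in 2 libraries Cdh5 was not tested, and Ptprb was not without LT-HSC replicate 1 or ST-HSC replicate 2. Deviations of same-numbered libraries correlated at 0.0518 across genes, so the numbers were not taken as pairs. With the replicate block 0 genes passed, 878 had an unadjusted p under 0.05, and the median of the 10 genes stayed at 0.20. At 3 reads per library, values of Ptprb and Cdh5 are near the limit of detection in their low libraries.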
